A study of Rattus norvegicus with 24 samples.

Results

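Voltage-gated and potassium ion channel genes were described in CA1, the hippocampal field whose pyramidal neurons send the main output of the hippocampus. The genes were chosen by name: every gene whose single symbol starts with Kcn, with Hcn or Scn followed by a digit, or with Cacn, except Kcnj10 and Kcnj16. The array named 112 such genes through 178 probe sets. Where a gene had several probe sets, the brightest on average was taken, and its log2 signal had to exceed 4 in at least 6 of 23 arrays. This kept 56 channel genes among 9076 genes tested, and the other 56 are not described further except at the edge of the filter. All 56 symbols matched rat RefSeq genes through their gene IDs.

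Total RNA of microdissected CA1 was measured on whole-genome rat expression arrays, with 1 array for each biological replicate. The groups were aged rats of 24 to 26 months with impaired spatial learning (impaired, 8 arrays), aged rats of 24 to 26 months with unimpaired spatial learning (unimpaired, 6 arrays) and young rats of 6 months (9 arrays). All were untreated, individually housed male Long-Evans rats, an outbred strain, and all were killed 2 weeks after testing in the Morris water maze, a swimming task with a submerged escape platform. An index of how close a rat swam to the platform separated aged rats that scored within the range of the young from those that scored worse, so impairment is a behavioural label, and the labels name no lesion, allele or agent. The signals were log2 values, on which a difference of 1 is a doubling, and each probe set has a brightness scale of its own, so levels were compared between groups and never between genes.

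Ion channels set how a pyramidal neuron answers its inputs. Sodium channels of the Nav family start and carry the spike. Kv channels end it and space the spikes that follow, and Kv1 channels of the axon and Kv4 channels of the dendrite hold back excitation in different parts of the cell. HCN channels open on hyperpolarization and shorten dendritic responses, inward rectifiers and leak channels hold the resting potential, and calcium channels couple voltage to transmitter release, to gene expression and to the slow afterhyperpolarization. A longer afterhyperpolarization is a known property of CA1 neurons of aged rodents.

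Array medians over all probe sets, dim ones included, lay between 4.20 and 4.28 on the log2 scale. Over the genes tested they spread more widely, between 8.30 in Impaired replicate 8 and 8.56 in Impaired replicate 5. The median correlation of an array with the others lay between 0.990 and 0.993 in impaired, 0.991 and 0.994 in unimpaired, and 0.991 and 0.992 in young arrays. RNA quality, taken as the log2 gap of the 3 prime over the 5 prime controls of Gapdh and Actb, had a median of 1.26 in impaired, 1.31 in unimpaired and 1.23 in young arrays, with overlapping ranges. Young replicate 9 stands among the unimpaired columns of the deposited table and the labels name no unimpaired replicate 6, so its label is open to doubt; it was kept as young. The tissue carried the markers of its label: 5 of 6 CA1 pyramidal cell markers were measured, at a mean log2 signal of 10.78 to 11.10 in impaired, 11.02 to 11.26 in unimpaired and 10.70 to 11.26 in young arrays. Markers of neighbouring fields were present too. Of 6 dentate granule cell markers 2 passed the filter: Prox1, a granule cell transcription factor, spanned 7.06 to 8.33 in impaired, 6.49 to 7.73 in unimpaired and 6.83 to 8.58 in young arrays, and Calb1, which CA1 pyramidal cells also express, spanned 11.30 to 11.73, 11.44 to 11.78 and 11.26 to 11.82 in the same groups. Of 8 CA3 and CA2 markers 7 passed, at a mean log2 signal of 7.72 to 8.99 in impaired, 7.86 to 8.09 in unimpaired and 7.76 to 8.63 in young arrays. In a piece of tissue, fewer cells of a type and less RNA per cell cannot be told apart.

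Few channel genes passed the test in any comparison. For age they were 3.57% of the channel genes, beside 3.71% of all genes. In impaired rats against young they were 3.57%, beside 3.8%. Kcna1 and Kcna6, which encode Kv1 subunits, rose in the aged rats as a whole, and Kcna1 and Hcn2 rose in impaired rats against young. No channel gene fell in any comparison, none passed in unimpaired rats against young, and none separated impaired from unimpaired rats. Both printed windows below precede the start of a gene that rose. Hcn2 and Kcna6 are shown because they had a window in the promoter set used. Kcna1, which also rose, had none there. Capitals mark GC boxes (GGGCGG on either strand, overlapping matches joined). The sequences are RefSeq promoters of build GRCr8, 250 bases up to the start, for Hcn2 at chr7:10639458-10639707 and for Kcna6 at chr4:161262353-161262602, both on the minus strand and read 5′ to 3′ in the direction of the gene.
Hcn2: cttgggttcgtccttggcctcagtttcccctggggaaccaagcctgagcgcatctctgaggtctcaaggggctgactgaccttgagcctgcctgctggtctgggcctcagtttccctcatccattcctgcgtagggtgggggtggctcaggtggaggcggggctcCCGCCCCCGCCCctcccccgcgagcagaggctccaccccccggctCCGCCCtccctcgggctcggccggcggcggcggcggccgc
Kcna6: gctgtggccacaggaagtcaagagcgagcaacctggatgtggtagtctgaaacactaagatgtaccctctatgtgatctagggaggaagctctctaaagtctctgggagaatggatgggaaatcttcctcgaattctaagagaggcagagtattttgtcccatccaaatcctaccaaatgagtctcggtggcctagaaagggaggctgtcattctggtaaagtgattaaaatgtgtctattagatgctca
The Hcn2 window was 71.6% G and C and held 3 GC boxes, while that of Kcna6 was 45.6% G and C and held none. Among the 42 channel genes with a window in the table, 57.1% held a GC box, against 32.4% of all 27457 windows of the same length. CCAAT was present in 16.7% of the channel windows and 34.3% of all windows, and TATAAA in 2.38% and 13.1%, searched on both strands. The E-box CACGTG and the CRE TGACGTCA were in 0 of the 42 channel windows, against 5.79% and 1.7% of all windows. The median G and C content was 65.2% in channel windows and 52% in all. A match of letters is a description of the window only.

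Aged rats were first compared with young rats whatever their learning. Of the 56 channel genes, 2 passed at a Benjamini-Hochberg adjusted p under 0.05 in limma, and both rose. That is 3.57% of them, beside 3.71% of all genes tested in either direction and 3.09% that rose. At an unadjusted p under 0.05, 7 channel genes were higher and 2 were lower in aged rats, 16.1% against 15.3% of all genes. The median log2 difference of the channel genes was -0.02, against 0.01 over all genes tested. The share of channel genes that passed was therefore near the background.

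Kcna1, the Shaker-type subunit of axon initial segments, axons and terminals, lies at chr4:161150378-161160051 (GRCr8, RefSeq). Its log2 signal was 8.48 at the lowest, 8.94 at the median and 9.37 at the highest in impaired rats, 8.60, 8.71 and 8.83 in unimpaired rats, and 7.97, 8.52 and 8.81 in young rats. The groups overlapped, but 5 of 8 impaired and 1 of 6 unimpaired arrays lay above every young array. Aged rats exceeded young rats by 0.34 ± 0.10 (log2, SE; 1.27-fold), with an adjusted p of 0.047 in limma. Impaired rats exceeded young rats by 0.43 ± 0.11 (1.35-fold; limma adjusted p = 0.0256). Unimpaired rats stood at 0.22 ± 0.12 above young rats (adjusted p = 0.568), and impaired rats at 0.21 ± 0.12 above unimpaired rats (adjusted p = 0.764, 95% interval -0.04 to 0.46), so the aged groups were not shown to differ. The aged call was close to the threshold: it held without Impaired replicate 7 or 8, Unimpaired replicate 1 or 4, or Young replicate 5, 7 or 9, and was lost without any 1 of the other 16 arrays, with adjusted p between 0.0233 and 0.105. The call in impaired rats was lost without Impaired replicate 2, 5 or 6, where the adjusted p reached 0.0628.

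Kcna6, a Kv1 subunit that joins Kcna1 and Kcna2 in axonal channels, lies close to Kcna1 at chr4:161229103-161262352. Its signal was 8.48, 8.82 and 8.90 (lowest, median and highest) in impaired rats, 8.72, 8.79 and 8.89 in unimpaired rats, and 8.37, 8.50 and 8.79 in young rats. Here both aged groups sat above most of the young, with 5 impaired and 3 unimpaired arrays above every young array. The aged difference was 0.22 ± 0.06 (log2, SE; 1.16-fold) and passed in limma with an adjusted p of 0.0449. Apart, impaired rats differed from young rats by 0.19 ± 0.07 (adjusted p = 0.136) and unimpaired rats by 0.25 ± 0.07 (adjusted p = 0.141). The aged call held without Impaired replicate 1, 2 or 3 or Young replicate 1, 3 or 6, and was lost without any 1 of the other 17 arrays, at an adjusted p of up to 0.105. With array weights or with the RNA quality measure as a covariate Kcna1 passed and Kcna6 did not. With arrays centred on their medians neither passed in the aged rats.

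Hcn2, an HCN channel that carries hyperpolarization-activated current in neurons, lies at chr7:10620422-10639457. Its lowest, median and highest signals were 5.59, 5.86 and 6.29 in impaired rats, 5.35, 5.63 and 5.83 in unimpaired rats, and 5.13, 5.54 and 5.67 in young rats. Of the impaired arrays 5 lay above every young array and 5 above every unimpaired array, and all 8 lay above the young median. Impaired rats exceeded young rats by 0.38 ± 0.09 (log2, SE; 1.3-fold; limma adjusted p = 0.0153). The call held without any 1 of the 23 arrays, at adjusted p between 0.00807 and 0.0365. Unimpaired rats stood at 0.13 ± 0.10 above young rats (adjusted p = 0.734). Impaired rats stood at 0.25 ± 0.10 above unimpaired rats, with an unadjusted p of 0.02 and an adjusted p of 0.651. For all aged rats the difference of 0.27 ± 0.08 missed the threshold, with a limma adjusted p of 0.0509, and passed without Impaired replicate 1 or 7 or Unimpaired replicate 4 or 7, at 0.0293 or above. Hcn3 and Hcn4 did not pass the filter.

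**Figure D1:**
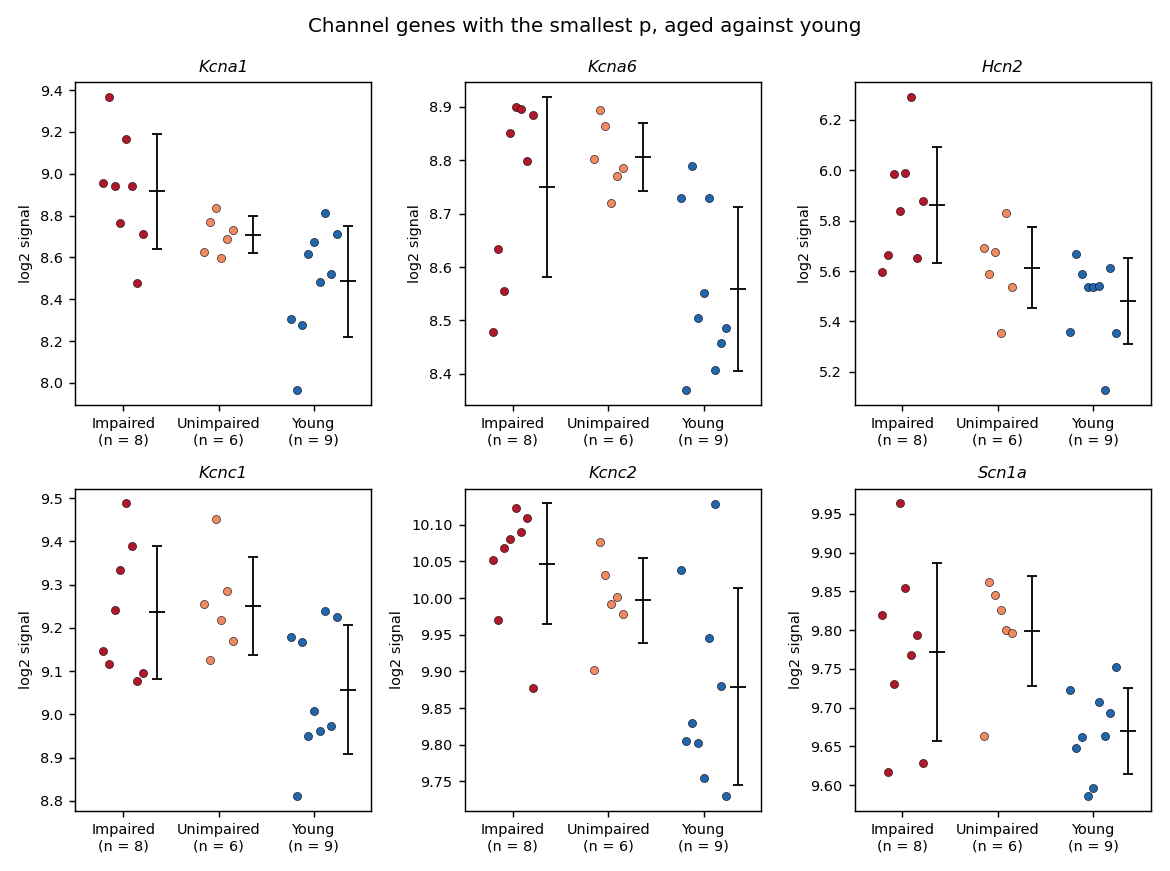
Log2 signal of Kcna1, Kcna6, Hcn2, Kcnc1, Kcnc2 and Scn1a in each array, by group, with points for arrays and bars for the mean and SD. In Hcn2 all 8 impaired arrays lie above the young median of 5.54, and in Kcna6 both aged groups have medians (8.82 and 8.79) above the young one (8.50).

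The impaired and unimpaired comparisons with young share the young arrays, so they are given side by side. Against young, 2 channel genes rose in impaired rats (3.57%, beside 3.8% of all genes called and 3.09% that rose) and 12 had an unadjusted p under 0.05, 8 higher and 4 lower (21.4%, beside 16.5% of all genes). Against young, 0 channel genes passed in unimpaired rats by limma (beside 0.76% of all genes) and 6 had an unadjusted p under 0.05, 5 higher and 1 lower (10.7%, beside 9.84% of all genes). Between impaired and unimpaired rats, 0 channel genes passed (beside 0% of all genes, since no gene passed), and 11 had an unadjusted p under 0.05, 5 higher and 6 lower in impaired rats. Those 11 are 19.6% of the channel genes, beside 6.93% of all genes, but none of the 11 had an adjusted p under 0.56. The channel genes also varied more between rats of a group than most genes did: the median within-group SD was 0.170 for channel genes and 0.138 for all genes tested.

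**Figure D2:**
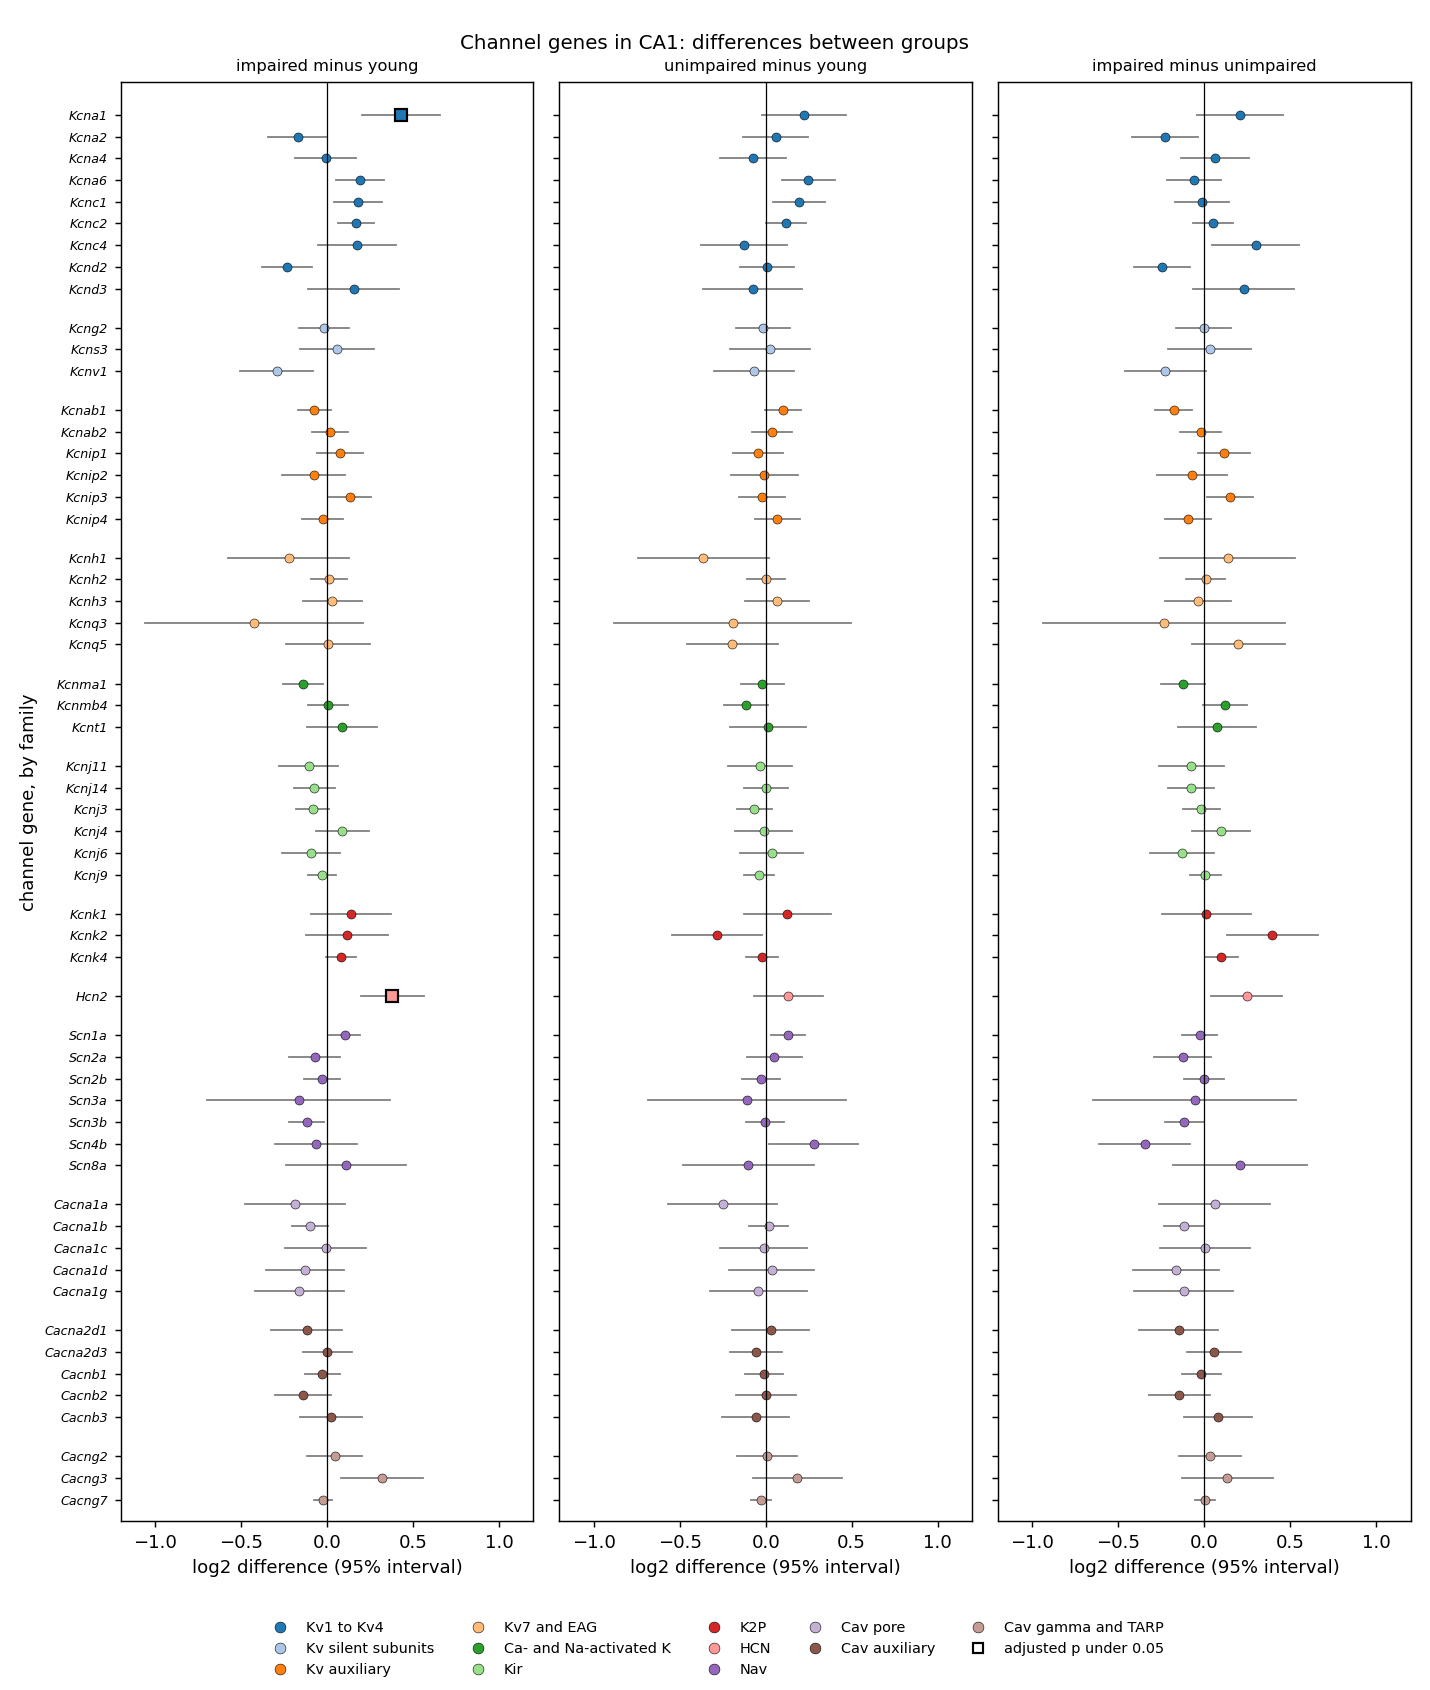
Log2 differences of the 56 channel genes by family for impaired minus young, unimpaired minus young and impaired minus unimpaired rats, with 95% intervals, and squares where the limma adjusted p was under 0.05. Squares stand at Kcna1 and Hcn2 in impaired against young only, and in the impaired against unimpaired panel none of the 56 is a square.

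Among the pore subunits of Kv1 to Kv4, 9 of 13 named genes were measured, and 5 of the 9 had an unadjusted p under 0.05 for age, beside 15.3% of all genes: Kcna1, Kcna6, Kcnc1 and Kcnc2 higher, and Kcnd2 lower. Kcnc1 and Kcnc2 encode Kv3 channels, which let neurons, above all fast-spiking interneurons, fire at high rates. Kcnc1 was 9.08, 9.19 and 9.49 in impaired rats, 9.13, 9.24 and 9.45 in unimpaired rats, and 8.81, 9.01 and 9.24 in young rats. All 14 aged arrays lay above the young median of Kcnc1 and 7 lay above every young array, but the difference of 0.18 ± 0.06 did not pass in limma (adjusted p = 0.0943), except with the RNA quality covariate (adjusted p = 0.0408). Kcnc2 was 9.88, 10.07 and 10.12 in impaired rats, 9.90, 10.00 and 10.08 in unimpaired rats, and 9.73, 9.83 and 10.13 in young rats, a difference for age of 0.15 ± 0.04 (adjusted p = 0.0746). Again all 14 aged arrays lay above the young median, but none above the highest young array. The other 3 probe sets of Kcnc2 gave 0.03 ± 0.06, 0.02 ± 0.16 and, in the dimmest, 0.34 ± 0.16 for age. Kcnc2 passed with array weights (adjusted p = 0.048) and without Impaired replicate 8 or Young replicate 1 or 7, where its adjusted p was 0.0155 or above. The interneuron markers were given the same test: 9 of 10 were measured and 0 passed in aged rats, with 5 differences positive and 4 negative. An unadjusted p under 0.05 was reached by 2, in opposite directions. Pvalb, the marker of fast-spiking cells, differed by 0.12 (unadjusted p = 0.0108, limma adjusted p = 0.148), and Cck, which pyramidal cells also express, by -0.12 (unadjusted p = 0.0185, adjusted p = 0.199). The mean interneuron marker level ran over 8.95 to 9.34 in impaired, 9.06 to 9.29 in unimpaired and 9.01 to 9.41 in young arrays, and its part in the Kv3 values was not tested.

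Kcnd2, the Kv4 subunit of the dendritic A-type current, was lower in impaired rats than in either other group without passing the test. Its signal was 10.69, 10.89 and 11.12 in impaired rats, 10.96, 11.16 and 11.30 in unimpaired rats, and 10.85, 11.17 and 11.27 in young rats. No impaired array reached the young or the unimpaired median, and 5 of 8 lay below every unimpaired array. The difference from unimpaired rats was -0.24 ± 0.08 (unadjusted p = 0.00479, limma adjusted p = 0.562), and that from young rats -0.23 ± 0.07 (adjusted p = 0.0656). Kcnd2 fell in impaired against young rats under median centring and under quantile normalization, where its adjusted p dropped to 0.0393. It also passed without Impaired replicate 1 or without Young replicate 3, the lowest of these adjusted p being 0.0263. A separate Kcnd2 probe set gave -0.33 ± 0.12 for impaired minus unimpaired rats.

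Kcna2, the Kv1 partner found with Kcna1 in juxtaparanodes, did not follow it. It was 10.36, 10.48 and 10.83 in impaired rats, 10.57, 10.75 and 11.12 in unimpaired rats, and 10.43, 10.75 and 10.99 in young rats. Of the impaired arrays 6 lay below every unimpaired array (-0.23 ± 0.09, unadjusted p = 0.0216, limma adjusted p = 0.651). Kcnc4, a Kv3 subunit with fast inactivation, was on the other side: 7.33, 7.60 and 8.05 in impaired rats, 7.24, 7.34 and 7.50 in unimpaired rats, and 7.10, 7.38 and 8.04 in young rats. Impaired rats stood at 0.30 ± 0.12 above unimpaired rats in Kcnc4 (unadjusted p = 0.0232, adjusted p = 0.651). Kcna4, an inactivating Kv1 subunit, and Kcnd3, a second Kv4 subunit, differed by -0.04 ± 0.08 and 0.06 ± 0.11 with age. The silent subunits, which form no channel alone and modify Kv2 partners, had 3 of 7 measured. Kcnv1 was the lowest of them against young, at -0.29 ± 0.10 in impaired rats (adjusted p = 0.126) and -0.07 ± 0.11 in unimpaired rats, while Kcng2 and Kcns3 lay within 0.06 of young in both aged groups.

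The auxiliary subunits of Kv channels, 6 of 11 measured, had none that passed. Kcnab1, a cytoplasmic beta subunit that gives Kv1 channels fast inactivation, had the smallest unadjusted p of all 56 genes between the aged groups. It was 11.39, 11.50 and 11.59 in impaired rats, 11.52, 11.69 and 11.84 in unimpaired rats, and 11.40, 11.59 and 11.71 in young rats. No impaired array reached the unimpaired median, and 5 lay below every unimpaired array, with the young in between. The difference was -0.18 ± 0.05 (unadjusted p = 0.00227, limma adjusted p = 0.562), and a separate Kcnab1 probe set gave -0.23 ± 0.10. Kcnip3, a calcium-binding Kv4 partner also known as DREAM, was 8.32, 8.57 and 8.74 in impaired rats, 8.33, 8.44 and 8.48 in unimpaired rats, and 8.31, 8.41 and 8.71 in young rats. Impaired rats stood at 0.15 ± 0.07 above unimpaired rats in Kcnip3 (unadjusted p = 0.0311, adjusted p = 0.673). Kcnip1, Kcnip2 and Kcnip4, the other Kv4 partners, and the beta subunit Kcnab2 lay between -0.05 and 0.03 for age. The 4 probe sets of Kcnab2 disagreed between the aged groups, at -0.02 in the one used and 0.28, 0.19 and -0.28 in the others.

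Kv7 and EAG genes (5 of 11 measured) and channels gated by calcium or sodium (3 of 7 measured) bear on the afterhyperpolarization and held no gene that passed. Kcnq5, which carries part of the M-current that restrains repetitive firing, was 9.34, 9.63 and 10.06 in impaired rats, 9.39, 9.42 and 9.59 in unimpaired rats, and 9.34, 9.57 and 10.23 in young rats, and the age difference was -0.08 ± 0.10. Kcnq3, its partner subunit, had the widest spread within groups of all 56 genes, with an SD of 0.68 and a young range of 3.78 to 6.98, so its age difference of -0.33 ± 0.27 says little. Kcnh1, an EAG channel, stood at -0.28 ± 0.15 (limma adjusted p = 0.383), while Kcnh2 and Kcnh3 lay at 0.01 and 0.05. Kcnh2 was dim, at a mean of 4.55, so its small difference says little. Kcnma1, the pore of the BK channel that ends the spike on calcium entry, was 9.53, 9.77 and 10.00 in impaired rats, 9.76, 9.93 and 10.00 in unimpaired rats, and 9.72, 9.91 and 10.07 in young rats. The impaired difference from young was -0.14 ± 0.06 (unadjusted p = 0.0177, limma adjusted p = 0.184). Its beta subunit Kcnmb4 and the sodium-activated Kcnt1 differed by 0.01 ± 0.06 and 0.09 ± 0.10 in the same comparison. The SK genes Kcnn1 and Kcnn3 did not pass the filter, Kcnn1 with 1 array over the limit and Kcnn3 with 0.

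Of 13 inward rectifiers, 6 were measured and 0 passed or had an unadjusted p under 0.05 in any of the 4 comparisons by limma. Kcnj3 and Kcnj6, which form the G-protein-gated channel that mediates slow inhibition, differed with age by -0.07 ± 0.04 (adjusted p = 0.403) and -0.04 ± 0.07. The leak channels of the K2P family had 3 of 11 measured. Kcnk2, the stretch- and lipid-sensitive TREK channel, was 6.54, 6.92 and 7.50 in impaired rats, 6.33, 6.53 and 6.98 in unimpaired rats, and 6.41, 6.91 and 7.11 in young rats. All 8 impaired arrays lay above the unimpaired median and 4 above every unimpaired array, but the young lay with the impaired. The difference of 0.40 ± 0.13 between the aged groups was the largest in size of the 56 (1.32-fold; unadjusted p = 0.00519, limma adjusted p = 0.562). Unimpaired rats differed from young rats by -0.28 ± 0.13 in Kcnk2 (unadjusted p = 0.034, adjusted p = 0.437). Kcnk4, a related channel, differed by 0.10 ± 0.05 between the aged groups, but was dim, at a mean of 4.45 beside the limit of 4. Kcnk1 was just inside the filter, with 19 of 23 arrays over the limit and a mean of 4.22, and Kcnj9, Kcnq3 and Scn8a followed with 22 arrays each. Cacna1h was just outside with 1 array, at a mean of 2.84, as was Kcnn1 with 1 array, at a mean of 3.64.

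**Figure D3:**
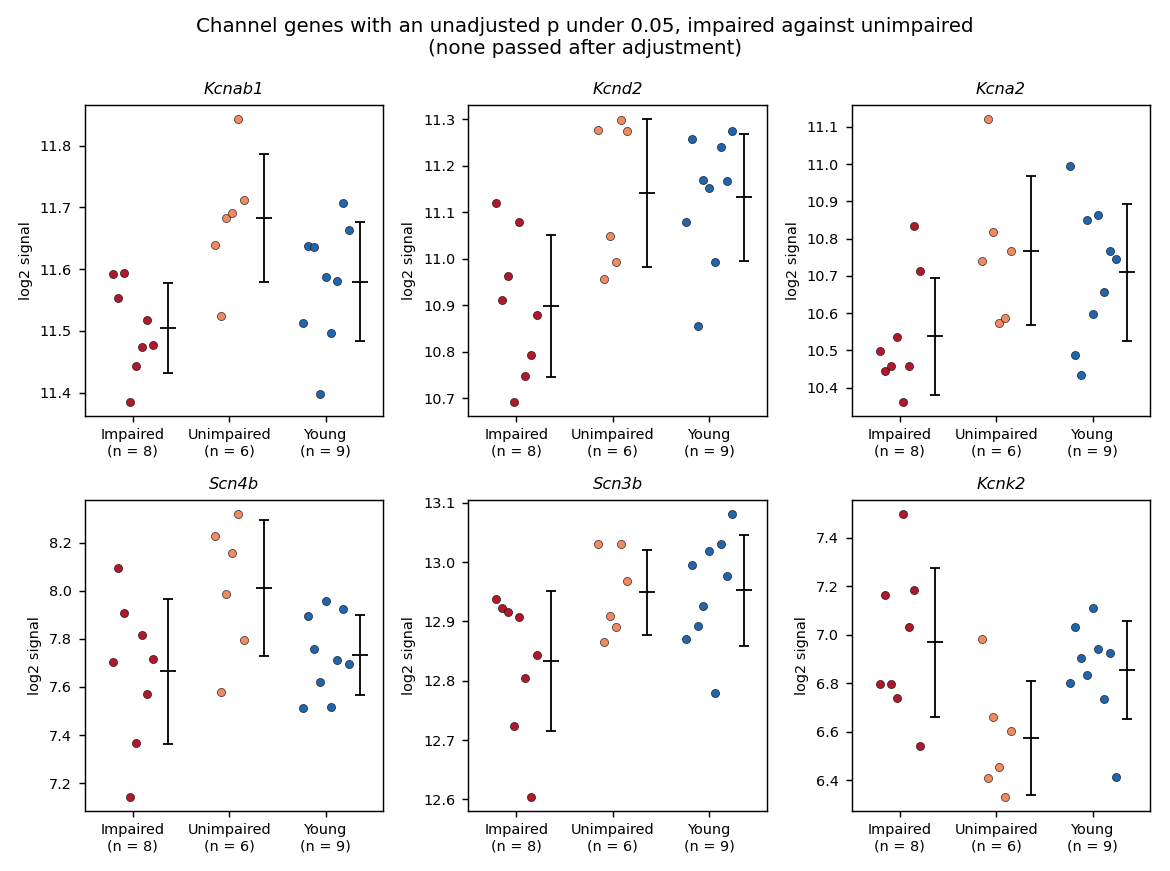
Log2 signal by array for 6 of the 11 channel genes with an unadjusted p under 0.05 between impaired and unimpaired rats, with points for arrays and bars for the mean and SD. Of the genes shown only Kcnk2 was higher in impaired rats, whereas 5 of the 11 were higher and 6 lower. The groups overlap in each panel, and in Kcnk2 and Kcnab1 the young arrays do not lie to one side of both aged groups.

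Sodium channels, with 7 of 12 genes measured, had none that passed. Scn1a, the pore subunit on which fast-spiking interneurons depend most, was 9.62, 9.78 and 9.96 in impaired rats, 9.66, 9.81 and 9.86 in unimpaired rats, and 9.59, 9.66 and 9.75 in young rats. Of the 14 aged arrays 10 exceeded the highest young one, yet the age difference was 0.11 ± 0.04 with a limma adjusted p of 0.118. Scn2a, the main pore subunit of excitatory axons, differed by -0.02 ± 0.06. The beta subunits, which steer sodium channels to the membrane and set their gating, differed little with age: Scn2b by -0.03, Scn3b by -0.07 and Scn4b by 0.08. Between the aged groups Scn4b, the subunit tied to resurgent current, was 7.14, 7.71 and 8.09 in impaired rats and 7.58, 8.07 and 8.32 in unimpaired rats, with 7.51, 7.71 and 7.96 in young rats. That difference was -0.35 ± 0.13 (unadjusted p = 0.0127, adjusted p = 0.629). Unimpaired rats differed from young rats by 0.28 ± 0.13 (adjusted p = 0.448), and the ranges of the 3 groups overlapped. Scn3b differed by -0.12 ± 0.06 (unadjusted p = 0.0461), and a separate probe set gave -0.20 ± 0.09. The probe sets of Scn2b disagreed, at -0.00 ± 0.06 in the one used and 0.49 ± 0.22 in a dimmer one. Scn3a and Scn8a spread widely within groups.

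**Figure D4:**
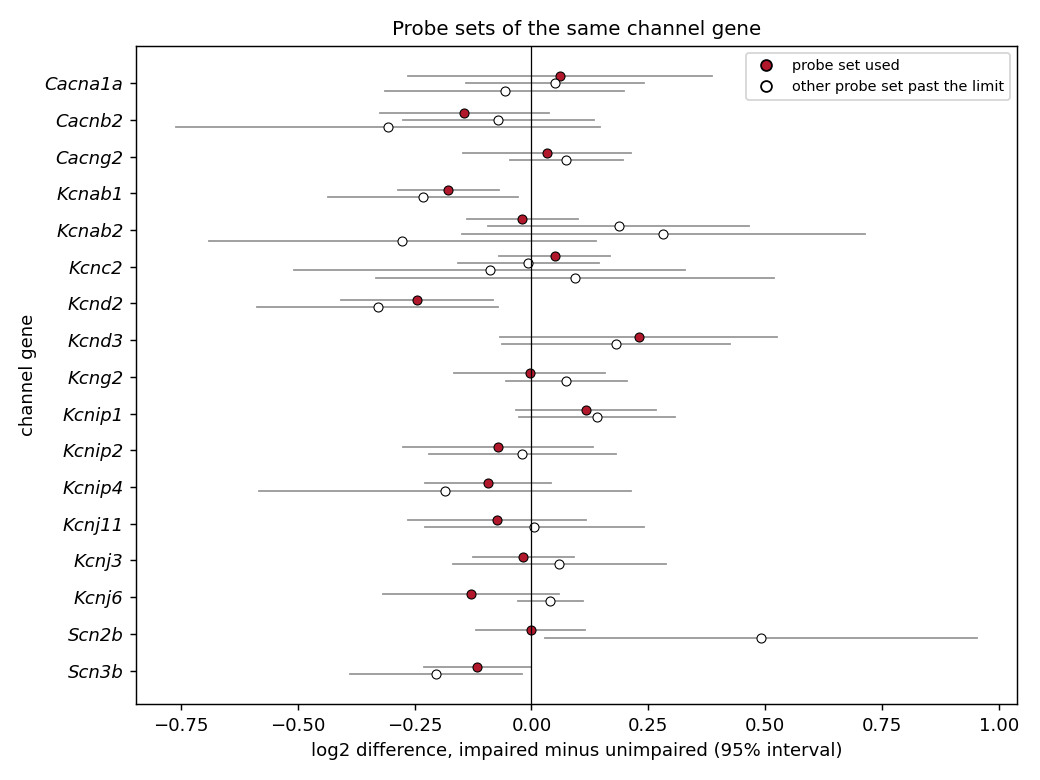
Log2 difference, impaired minus unimpaired, of every probe set past the filter for the 17 channel genes that had more than 1, with 95% intervals. Probe sets of Kcnd2, Kcnab1 and Scn3b lie on the same side of 0, and those of Kcnab2 and Scn2b do not agree.

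Calcium channel genes did not pass in any comparison. Of 10 pore subunits 5 were measured, and all 5 had a negative difference for age, but none had an unadjusted p under 0.05 for age. Median centring lowered every age difference by the same amount, so it could not turn a negative one positive. Quantile normalization lowered the median of the 5 from -0.06 to -0.08. That the signs stayed negative under these scalings therefore adds no support. Against young, all 5 were negative in impaired rats, while 2 were positive and 3 negative in unimpaired rats. The 2 positive values were under 1 SE, Cacna1b at 0.02 ± 0.05 and Cacna1d at 0.03 ± 0.12. Under either scaling 1 was positive and 4 were negative in unimpaired rats. Cacna1c and Cacna1d encode the L-type pores, whose current is known to be larger in aged CA1 neurons. Cacna1c was 5.43, 6.42 and 6.62 in impaired rats, 6.06, 6.33 and 6.40 in unimpaired rats, and 6.11, 6.33 and 6.46 in young rats, which overlap throughout. Its age difference was -0.01 ± 0.10 (95% interval -0.22 to 0.20), and that of Cacna1d was -0.06 ± 0.10 (95% interval -0.26 to 0.14). Cacna1b, the N-type pore of presynaptic terminals, was 8.46, 8.75 and 8.87 in impaired rats, 8.78, 8.84 and 8.88 in unimpaired rats, and 8.68, 8.85 and 8.93 in young rats. In Cacna1b 4 impaired arrays lay below every unimpaired array (-0.12 ± 0.06, unadjusted p = 0.0439, limma adjusted p = 0.709). Cacna1a, the P/Q-type pore, differed with age by -0.21 in the probe set used but by 0.03 and 0.00 in its others. The beta and alpha2delta subunits, which carry pores to the membrane, had 5 of 6 measured and lay between -0.08 and -0.01 for age, all negative. In each aged group alone against young, 2 of these 5 were positive and 3 negative in the fit reported.

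Cacng3, a TARP that anchors AMPA receptors and is named for its likeness to a calcium channel subunit, was 9.06, 9.50 and 9.90 in impaired rats, 9.14, 9.40 and 9.54 in unimpaired rats, and 8.85, 9.11 and 9.89 in young rats. The highest young value came from Young replicate 5 and stood far above the other young arrays. With it, the age difference was 0.26 ± 0.10 (limma adjusted p = 0.191) and the impaired difference 0.32 ± 0.12 (adjusted p = 0.144). Without Young replicate 5, Cacng3 rose in aged rats (adjusted p = 0.0153) and in impaired rats against young (adjusted p = 0.0127). The other TARPs measured, Cacng2 and Cacng7, differed with age by 0.03 ± 0.07 and -0.02 ± 0.02. Cacng7 was dim, at a mean of 4.61, so its small difference says little.

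With age, 6 of 9 microglial markers and 2 of 8 astrocyte markers rose in limma, beside 3.09% of all genes, in the comparison in which Kcna1 and Kcna6 rose. Of 7 endothelial and pericyte markers measured, 6 had negative differences and 1 fell, Slco1c1, a thyroid hormone transporter, by 0.41 ± 0.08 (adjusted p = 0.00503). The mean microglial marker level ran over 8.12 to 8.64 in impaired, 8.13 to 8.46 in unimpaired and 7.66 to 8.14 in young arrays, and its part in the channel values was not tested. Markers of neurons and of myelin also differed between the aged groups in the same arrays, at unadjusted p only. Between impaired and unimpaired rats all 5 CA1 pyramidal markers had negative differences, 3 of them with an unadjusted p under 0.05, beside 6.93% of all genes: Wfs1 at -0.36, Fibcd1 at -0.20 and Pou3f1 at -0.28. The oligodendrocyte markers had 7 of 8 measured, and 4 had an unadjusted p under 0.05, all higher in impaired rats, against the same 6.93%: Opalin at 0.34, Mag at 0.34, Cnp at 0.19 and Cldn11 at 0.21. Their mean level ran over 11.79 to 12.25 in impaired, 11.62 to 11.94 in unimpaired and 11.67 to 12.01 in young arrays. The dentate markers went in opposite directions, Prox1 by 0.67 ± 0.25 (unadjusted p = 0.0128) and Calb1 by -0.21 ± 0.09 (unadjusted p = 0.0251). Of 7 CA3 and CA2 markers 5 had positive differences, 1 with an unadjusted p under 0.05, Pcp4 at 0.37 ± 0.17, and the widest was Cpne4 at 1.23 ± 0.63 (unadjusted p = 0.0627). None of these passed after adjustment in limma, and the part of such markers in the channel values of the aged groups was not tested. Against young, Opalin, a myelin protein, rose in impaired rats by 0.35 ± 0.09 (limma adjusted p = 0.0293), the comparison in which Kcna1 and Hcn2 rose. Opalin was the only 1 of the 7 oligodendrocyte markers with an unadjusted p under 0.05 there (14.3%, beside 16.5% of all genes). Of the 7 differences 6 were positive and 1 was negative.

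Genes that work beside the channels were taken from lists. Of 39 partner proteins 28 were measured, and 1 passed, in impaired rats against young, a share near the 3.8% of all genes. This was Cntn2, the adhesion protein that gathers Kv1 channels at the juxtaparanodes of myelinated axons. It was 5.47, 5.60 and 6.12 in impaired rats, 4.93, 5.42 and 5.57 in unimpaired rats, and 4.89, 5.37 and 5.40 in young rats, so every impaired array lay above every young one. The difference was 0.42 ± 0.10 (limma adjusted p = 0.0142), and 0.32 ± 0.11 from unimpaired rats (unadjusted p = 0.00603, adjusted p = 0.562). Cntnap2, its binding partner at the same site, differed from young by -0.01 ± 0.05 in impaired rats, and Dpp6, the Kv4 partner, by -0.09 ± 0.04 (adjusted p = 0.284). The tether of HCN channels Pex5l differed by -0.11 ± 0.14.

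Of 35 other cation and chloride channels 23 were measured. Ttyh3, a member of the tweety family, fell in aged rats by 0.17 ± 0.04 (log2, SE; limma adjusted p = 0.00983), with 10.85, 10.97 and 11.14 in impaired, 10.97, 11.04 and 11.07 in unimpaired and 11.02, 11.18 and 11.29 in young rats. It was the only one of these 23 that passed for age (4.35%, beside 3.71% of all genes). Trpc4, a receptor-operated cation channel, was 8.35, 8.84 and 9.07 in impaired rats against 8.90, 9.11 and 9.48 in young rats (-0.34 ± 0.10, adjusted p = 0.0514). Of 22 ion pumps and cotransporters 13 were measured. For age 1 of the 13 passed (7.69%, beside 3.71% of all genes). Against young, 2 passed in impaired rats (15.4%, beside 3.8%) and 1 in unimpaired rats (7.69%, beside 0.76%). Fxyd1, the regulator of the sodium pump also called phospholemman, rose in aged rats by 0.38 ± 0.06 (adjusted p = 0.000718), by 0.38 ± 0.07 in impaired and 0.37 ± 0.08 in unimpaired rats. Slc12a2, the inward chloride cotransporter, rose in impaired rats by 0.32 ± 0.07 (adjusted p = 0.0127) and stood at 0.07 ± 0.08 in unimpaired rats. Slc12a5, the chloride extruder of mature neurons, differed with age by 0.03 ± 0.03.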

How the data were processed

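The authors deposited log2 signals made with GCRMA, which corrects background, normalizes arrays and summarizes probes, per the submitters' processing notes; its version is not given in the sources used here. The values were used as deposited, so no depth applies and the number of arrays limits the precision. Of 24 columns, 1 was blank, that of an aged unimpaired array left out after quality control; 0 other columns of values were left unused. Young replicate 9 was kept as labelled. Group means were fitted over 9076 genes with limma 3.58.1 (lmFit and eBayes, R 4.3.3), all 3 groups together, 2-sided, with Benjamini-Hochberg adjustment over all genes and a threshold of 0.05. Aged is the mean of both aged groups weighted by arrays. The fit was tested on simulated data. Members and lists were chosen with earlier results of these data known. Genes were named if they passed in a comparison, had the smallest p of their family, lay at the edge of the filter or belonged to a panel of hippocampal channels; Kcnh2, Kcnh3, Kcng2, Kcns3, Kcnip2, Cacng2, Cacng7 and Kcnc4 were added to complete families. Genes of partner and marker lists were named after their values were seen. Promoters are from RefSeq (GRCr8). Alternatives varied the filter, probe sets, scaling, weights, moderation, RNA quality, replicate block, groups fitted, threshold and arrays. No batch or date was given, so none was modelled. Where probe sets are compared, adjustment ran over all probe sets past the filter. Figures used matplotlib 3.10.9 in Python 3.11.15.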

Additional observations from a re-analysis of the deposited data

Results flagged for a closer look

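Outlying arrays were sought in 57 groups, over the 19 channel genes with an unadjusted p under 0.05 in any comparison. Other named genes were not searched. Dixon's test was used at the 95% level, which chance alone passes in about 5% of groups, and 4 groups had an outlying array. Cacng3 was highest in Young replicate 5, at 9.89 against 9.29 in the nearest young array, a gap of 0.573 of the group's range. Without that array Cacng3 passed in aged and in impaired rats, as given above. Kcnk4 was lowest in Young replicate 5 at 4.37, with the nearest young array at 4.43 (0.577 of the range), and lowest in Unimpaired replicate 2 at 4.30, with the nearest unimpaired array at 4.40 (0.710 of the range). Scn1a was lowest in Unimpaired replicate 1 at 9.66, with the nearest unimpaired array at 9.80 (0.671 of the range).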

How the results depend on the processing

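The direction of no called channel gene reversed under the 13 alternatives or the 23 fits without 1 array. Signs over all channel genes were less stable. Of 224 differences by gene and comparison, 87 changed sign in at least 1 of these fits. Among these, 83 were under 1 SE in the fit reported, and the largest was 0.19 in size. For aged against young, 2 channel genes passed in the fit reported; 0 passed with median centring, with no filter, with every probe set tested and with the replicate block, 1 with quantile normalization (Kcna1) and with the young and aged groups fitted as 2 groups (Kcna6), and 5 at a threshold of 0.1. Array weights called 3 (Cacng3, Kcna1 and Kcnc2) and the RNA quality covariate 3 (Cacng3, Kcna1 and Kcnc1), both without Kcna6. Without 1 array the count ran between 0 and 2. For impaired against young, 2 passed in the fit reported; 1 passed with the replicate block (Hcn2), with the groups fitted alone (Hcn2) and with the stricter filter (Kcna1, since Hcn2 was not tested there), and 4 at a threshold of 0.1; without 1 array the count ran between 1 and 3. Limma called 0 channel genes in every alternative between impaired and unimpaired rats and between unimpaired and young rats, with 8 to 12 and 3 to 7 of them at an unadjusted p under 0.05 in the fits without 1 array. Of all genes, the replicate block called 159 for age, 165 in impaired and 31 in unimpaired rats against young, and 1 between the aged groups, beside 337, 345, 69 and 0 without it; array weights called 149 in unimpaired rats, and a threshold of 0.1 called 524, 531 and 135. Without 1 array these counts ran over 224 to 407, 228 to 439 and 35 to 86. Median centring lowered the share of rises among the genes called for age to 63.9% beside 83.1%, in impaired rats to 66.3% beside 81.2% and in unimpaired rats to 62.5% beside 81.2%. The replicate numbers do not pair animals: same-numbered arrays correlated at -0.07 on average in their deviations, and 1 of 20 pairs exceeded 0.1. In a fit added after seeing the data, without Impaired replicates 7 and 8 and Young replicate 5, the arrays of lowest correlation, 2 channel genes passed for age (Cacng3 and Kcna1, not Kcna6) and 3 in impaired against young rats (Cacng3, Hcn2 and Kcna1). The cause of these shifts was not tested. With 6 to 9 arrays a group, the median standard error of a channel gene's log2 difference was 0.09 for impaired against unimpaired and 0.07 for aged against young rats.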
